A study of Mus musculus with 48 samples.

Results

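The 91 genes described here encode the nuclear part of oxidative phosphorylation: subunits of the respiratory chain and of ATP synthase, with some of their assembly factors. They are all genes of the deposited table, 91 of 16014, whose symbol begins with Ndufa, Ndufb, Ndufc, Ndufs, Ndufv, Uqcr, Cox4 to Cox8 or Atp5, or is Sdha, Sdhb, Sdhc or Sdhd. The choice used symbols only and no measured value, but it was made with earlier results of these data known. It also takes in 8 complex I assembly factors (Ndufaf genes), the complex IV subunit Ndufa4 with its paralog Ndufa4l2, and Atp5s and Atp5sl, which carry the ATP synthase name without being among its standard subunits. It leaves out genes of the mitochondrial genome and cytochrome c1 (Cyc1).

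The study asked what the removal of microglia does in a mouse model of amyloid plaque formation. All mice were of the C57BL/6 strain. Wild-type mice and 5xFAD mice, which carry mutant human APP driven by the neuronal Thy1 promoter, received vehicle chow (the groups Wild-type and 5xFAD) or chow with 1200 ppm PLX5622, an inhibitor of the CSF1R kinase on which microglia depend (the groups PLX5622 and 5xFAD + PLX5622). The chow was given from the age of 1.5 months until 7 months. RNA of cortex, of hippocampus and of a thalamus sample that also held striatum was sequenced, giving 12 groups of 4 libraries and 48 libraries in all. The design names 4 mice per group. The labels give neither the sex of each mouse nor whether the 3 regions of one number came from one mouse, and p-values measure the spread between these libraries.

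Oxidative phosphorylation passes electrons from NADH (complex I) and succinate (complex II) through complex III to oxygen at complex IV, and the proton gradient this builds drives ATP synthase. Complexes I, III, IV and ATP synthase are assembled from nuclear subunits, described here, together with subunits made inside mitochondria from the mitochondrial genome, whereas complex II is wholly nuclear. Neurons meet most of their energy demand this way, and several complex IV subunits exist as paired isoforms of which one is typical of heart and skeletal muscle. In RNA from whole tissue, fewer cells of a type and less RNA per cell cannot be told apart.

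Values are RPKM, reads per kilobase of transcript scaled to the reads of the library, so levels can be compared between genes per length. Recovered read totals, in units of 1e6 reads, ran from 6.19 to 16.01 per library, with a median of 10.94. Csf1r, the receptor that the drug blocks and a microglial marker, read 18.2 to 21.4 RPKM in Wild-type, 26.7 to 41.6 in 5xFAD, 0.0638 to 2.5 in PLX5622 and 0.221 to 12.5 in 5xFAD + PLX5622 libraries; the highest treated value was 5xFAD + PLX5622 hippocampus 2. Hippocampus libraries 3 and 4 of 5xFAD + PLX5622 held the liver transcript Alb at 634 and 112 RPKM. The striatal marker Drd1 reached 10 RPKM or more in 5 hippocampus libraries (5xFAD 3 at 50.3, 5xFAD 4 at 26, Wild-type 2 at 14.5, PLX5622 2 at 12.3 and 5xFAD + PLX5622 3 at 10.9). Results that moved without the libraries with high Alb or Drd1 are given below both ways. Tcf7l2 read 2.54 to 4.51 RPKM in cortex, 13.6 to 62.9 in thalamus and 2.84 to 27.1 in hippocampus libraries. Its highest hippocampus values were 27.1 and 24.6 in 5xFAD 2 and 1, 25.7 in PLX5622 4 and 22.1 in PLX5622 2. Some hippocampus libraries thus reached thalamus values, and no fit adjusted for this signal.

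The members were abundant and even. Their median level, as a mean over the 48 libraries, was 53.6 RPKM, against 7.36 RPKM for all 15975 genes tested, and together they made up 1.45 to 2.02% of the summed RPKM of a library. Of the 91 members, 16 stood at 100 RPKM or more, 74 at 10 or more and 10 under 5. Atp5b, the catalytic beta subunit of ATP synthase, was the highest at 414 RPKM, followed by Cox4i1, the general form of complex IV subunit 4, at 365 and Atp5a1, the alpha subunit of ATP synthase, at 256. Atp5g2, a gene for the membrane ring subunit c of ATP synthase, was the lowest at 0.949 RPKM, before Cox4i2 at 1.34 and Atp5l, subunit g of ATP synthase, at 1.58.

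Median levels by role ran from 52.5 to 84.5 RPKM, apart from lower values for the complex I assembly factors and for Atp5s and Atp5sl, whose median was 9.85. The 7 core subunits of complex I, among them the carriers of its flavin and iron-sulfur centres, had a median of 61.2 RPKM, with Ndufs3 lowest at 26.6. Its 29 accessory subunits had a median of 52.5 RPKM, from Ndufab1, the mitochondrial acyl carrier protein, at 1.94 to Ndufb8 at 129. The 8 assembly factors, which help build complex I and do not stay in it, were lower, with a median of 10.6 RPKM and a span from Ndufaf6 at 5.12 to Ndufaf3 at 14.8.

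The 4 subunits of complex II had a median of 57.4 RPKM, led by the flavoprotein Sdha at 118 with the membrane anchor Sdhd lowest at 36. Complex III, with 8 members, had the highest median of the complexes at 84.5 RPKM, from Uqcrb at 33.9 to the hinge protein Uqcrh at 113. The 16 complex IV genes had a median of 73.0 RPKM and the 15 ATP synthase genes one of 75.5 RPKM. Both had the widest spans, from Cox4i2 at 1.34 to Cox4i1 at 365 and from Atp5g2 at 0.949 to Atp5b at 414. These medians are descriptions of levels and were not tested against each other.

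Where complex IV has a general and a muscle-type or otherwise restricted isoform, the general form was far higher in these brain samples. Cox4i1 stood at 365 RPKM against 1.34 for Cox4i2, an isoform best known from lung. Cox6a1 stood at 232 against 3.42 for the muscle form Cox6a2, and Cox8a at 177 against 1.73 for the muscle form Cox8b. Cox6b1 stood at 200 against 2.2 for Cox6b2, known as the testis form. Among the Cox7a genes, Cox7a2 stood at 90, the muscle form Cox7a1 at 3.05 and Cox7a2l at 30.4. Ndufa4 stood at 167 and its low-oxygen-induced paralog Ndufa4l2 at 1.6. The isoforms Cox7b2 and Cox8c were not analysed here.

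Some low levels go with sequence that other genes share. Each coding sequence of the GENCODE M21 annotation was divided into all its windows of 50 bases, the length of the reads, and each window was looked for on either strand in all GENCODE M21 transcripts of other genes. All windows were unique in 49 of the 91 members, under 50% were unique in 15 and under 1% in 6. Those 6 were Atp5g2, Atp5l, Cox7c and Ndufb4 with 0%, Ndufab1 with 0.2% and Atp5g1 with 0.3%. Most of the genes that share their windows were annotated as pseudogenes, 12 of 14 for Atp5l and 3 of 3 for Cox7c. Reads from such windows cannot be told apart from reads of the copies, and a counter that drops reads with several matches leaves few: Cox7c, a small complex IV subunit, had 1 to 16 recovered reads per library, Atp5l 0 to 20 and Atp5g2 1 to 15. The levels of these 6 genes are therefore uncertain, and so are comparisons that rest on them.

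The 3 genes for subunit c of ATP synthase show this, since Atp5g1, Atp5g2 and Atp5g3 encode the same mature protein behind different leader peptides. Atp5g3, with all windows unique, stood at 181 RPKM, against 5.93 for Atp5g1 and 0.949 for Atp5g2. The first 50 coding bases of these genes, 5′ to 3′ with the start codon in capitals, are printed with those of Cox7c, Atp5l and, for contrast, Cox8a because they show what a read must carry to be placed. No other gene held the windows of Atp5g3 and Cox8a, 1 other gene held that of Atp5g1, 2 held that of Atp5g2, 1 held that of Cox7c and 3 held that of Atp5l.
Atp5g3 (chromosome 2): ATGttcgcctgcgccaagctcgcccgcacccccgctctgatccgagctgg
Atp5g1 (chromosome 11): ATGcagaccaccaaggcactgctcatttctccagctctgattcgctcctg
Atp5g2 (chromosome 15): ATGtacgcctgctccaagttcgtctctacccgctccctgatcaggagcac
Cox7c (chromosome 13): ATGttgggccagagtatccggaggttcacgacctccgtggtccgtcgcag
Atp5l (chromosome 9): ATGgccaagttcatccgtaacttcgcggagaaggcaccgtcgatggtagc
Cox8a (chromosome 19): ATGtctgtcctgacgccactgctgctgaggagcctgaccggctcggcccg

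**Figure D1:**
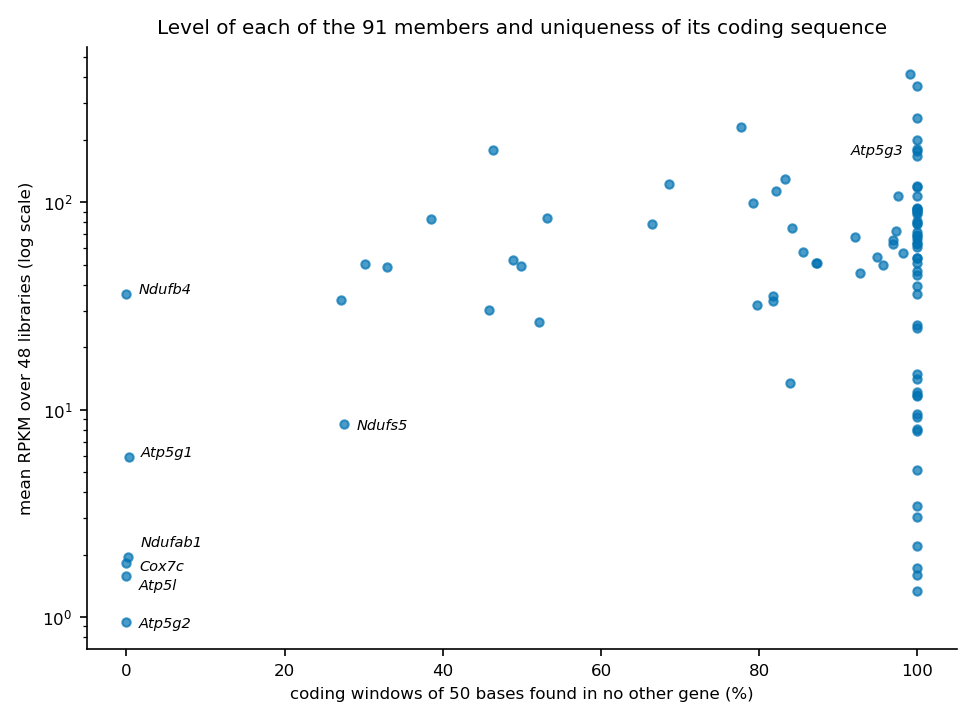
Mean RPKM over 48 libraries (log axis) against the percent of coding windows of 50 bases found in no other gene, 1 point per member, with 8 genes named. Atp5g2, Atp5l, Cox7c and Ndufab1, all under 2 RPKM, lie at the left edge with under 1% of windows unique, whereas Atp5g3 lies at 100% and 181 RPKM.

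Promoters of respiratory chain genes are known for binding sites of NRF1, of ETS factors such as GABPA and of YY1. RefSeq start sites (GRCm38.p6) were matched for 76 of the 91 members. Within 250 bases before to 50 bases after the start, on either strand, the NRF1 core TGCGCA was present in 19 of 76 members (25.0%) and in 8.8% of all 27025 genes. The ETS motif CCGGAAG was present in 18 members (23.7%) and in 9.9% of all genes, and the YY1 motif ATGGCGG in 13 members (17.1%) and in 4.7% of all genes. None of the motifs contains another, although matches may overlap at their ends. Within 100 bases before to 50 after the start, the shares were 18.4%, 21.1% and 14.5% of members and 6.0%, 7.5% and 3.3% of all genes. These are counts of letters and not of bound factors.

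The 250 bases before the start are printed, 5′ to 3′ on the coding strand, for the 3 members called between Wild-type and PLX5622 thalamus and for Cox8a, whose regional order ran opposite to most members. Capitals mark the NRF1 core, of which Sdha has 2 in this stretch. The other 3 stretches hold none of the 3 motifs.
Ndufb5 (chr3:32736813-32737062, plus strand): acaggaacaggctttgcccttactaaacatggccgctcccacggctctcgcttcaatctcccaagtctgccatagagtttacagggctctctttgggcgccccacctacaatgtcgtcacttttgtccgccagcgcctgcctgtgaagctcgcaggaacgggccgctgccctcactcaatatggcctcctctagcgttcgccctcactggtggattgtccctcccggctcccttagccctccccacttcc
Ndufb8 (chr19:44555443-44555692, minus strand): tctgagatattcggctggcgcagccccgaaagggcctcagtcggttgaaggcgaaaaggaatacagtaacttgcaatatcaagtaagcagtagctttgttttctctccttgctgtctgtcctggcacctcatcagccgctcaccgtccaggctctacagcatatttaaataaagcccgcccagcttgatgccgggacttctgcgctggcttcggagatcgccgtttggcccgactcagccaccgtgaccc
Sdha (chr13:74350241-74350490, minus strand): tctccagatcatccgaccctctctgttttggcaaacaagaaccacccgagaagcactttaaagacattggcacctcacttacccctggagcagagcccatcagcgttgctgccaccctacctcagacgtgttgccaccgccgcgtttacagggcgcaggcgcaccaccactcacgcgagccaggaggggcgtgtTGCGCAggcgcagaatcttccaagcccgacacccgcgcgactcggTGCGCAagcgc
Cox8a (chr19:7217617-7217866, minus strand): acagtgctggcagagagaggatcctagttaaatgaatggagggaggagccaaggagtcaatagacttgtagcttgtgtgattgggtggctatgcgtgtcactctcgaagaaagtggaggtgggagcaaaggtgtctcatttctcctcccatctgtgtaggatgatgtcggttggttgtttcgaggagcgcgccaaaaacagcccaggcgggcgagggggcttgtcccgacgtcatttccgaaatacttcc

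Across the 12 groups most members moved little. For the 74 members at 10 RPKM or more, the difference between the highest and the lowest group mean had a median of 0.39 on the log2 scale and a maximum of 0.66, in Ndufa2, a complex I accessory subunit. The same median over the 6609 tested genes at that level was 0.47. The smallest ranges were those of Uqcrc2 (0.18), a core protein of complex III, Ndufs3 (0.18), an iron-sulfur arm subunit of complex I, and Ndufa5 (0.19), an accessory subunit. The largest belonged to low isoforms, Cox8b (3.20), Cox6b2 (1.74) and Ndufa4l2 (1.34).

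One group stood at the top for most members. PLX5622 thalamus had the highest group mean in 66 of the 91 members, and some thalamus group had it in 72. A hippocampus group was lowest in 50 members, a cortex group in 38 and a thalamus group in 3. These positions were not counted over all genes tested, so they do not set the members apart from other genes. The mean log2(RPKM + 0.1) over the 90 members at 1 RPKM or more was 5.47, 5.38, 5.44 and 5.52 in the PLX5622 thalamus libraries. It was 5.22, 5.23, 5.37 and 5.38 in Wild-type thalamus and 5.19, 5.03, 5.18 and 5.15 in PLX5622 cortex. The lowest PLX5622 thalamus library matched the highest Wild-type thalamus library at this precision and lay above every PLX5622 cortex library.

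**Figure D2:**
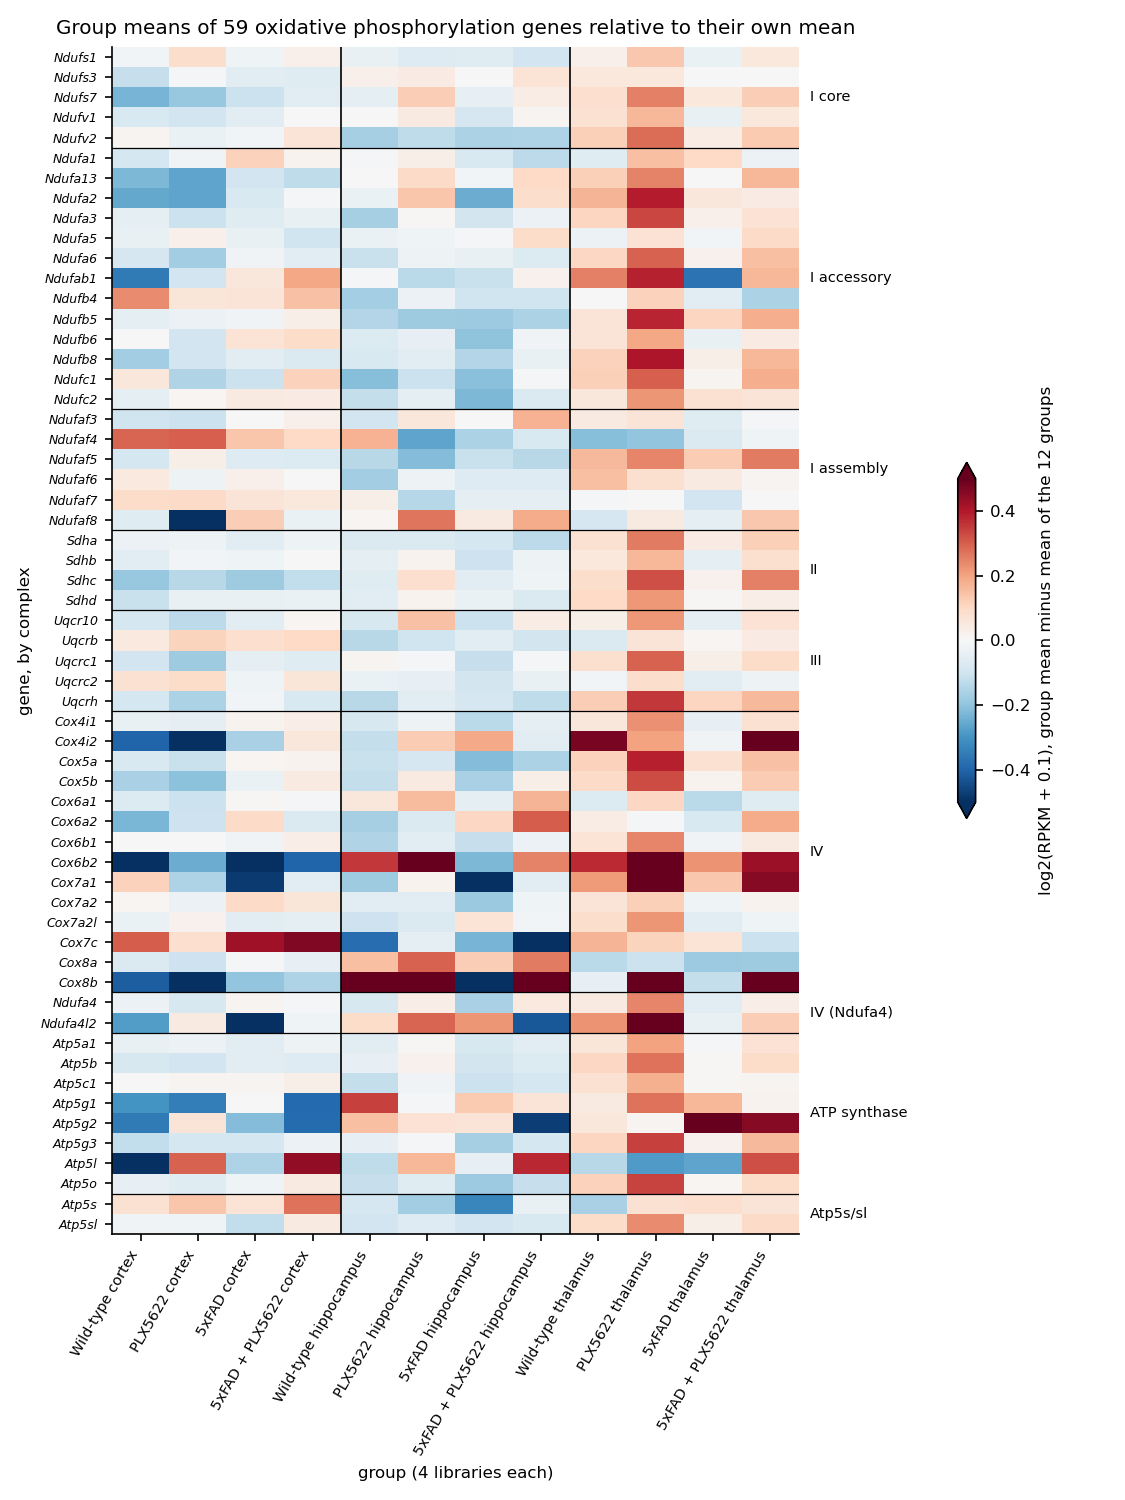
Heat map of the 59 members named in the text, ordered by role, in the 12 groups; colour is the group mean of log2(RPKM + 0.1) minus the mean of the 12 groups, limited to 0.5 in either direction. The column of PLX5622 thalamus is the one with the most high values. Over all 91 members it holds the highest group mean of 66, a count not made over all genes tested.

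**Figure D3:**
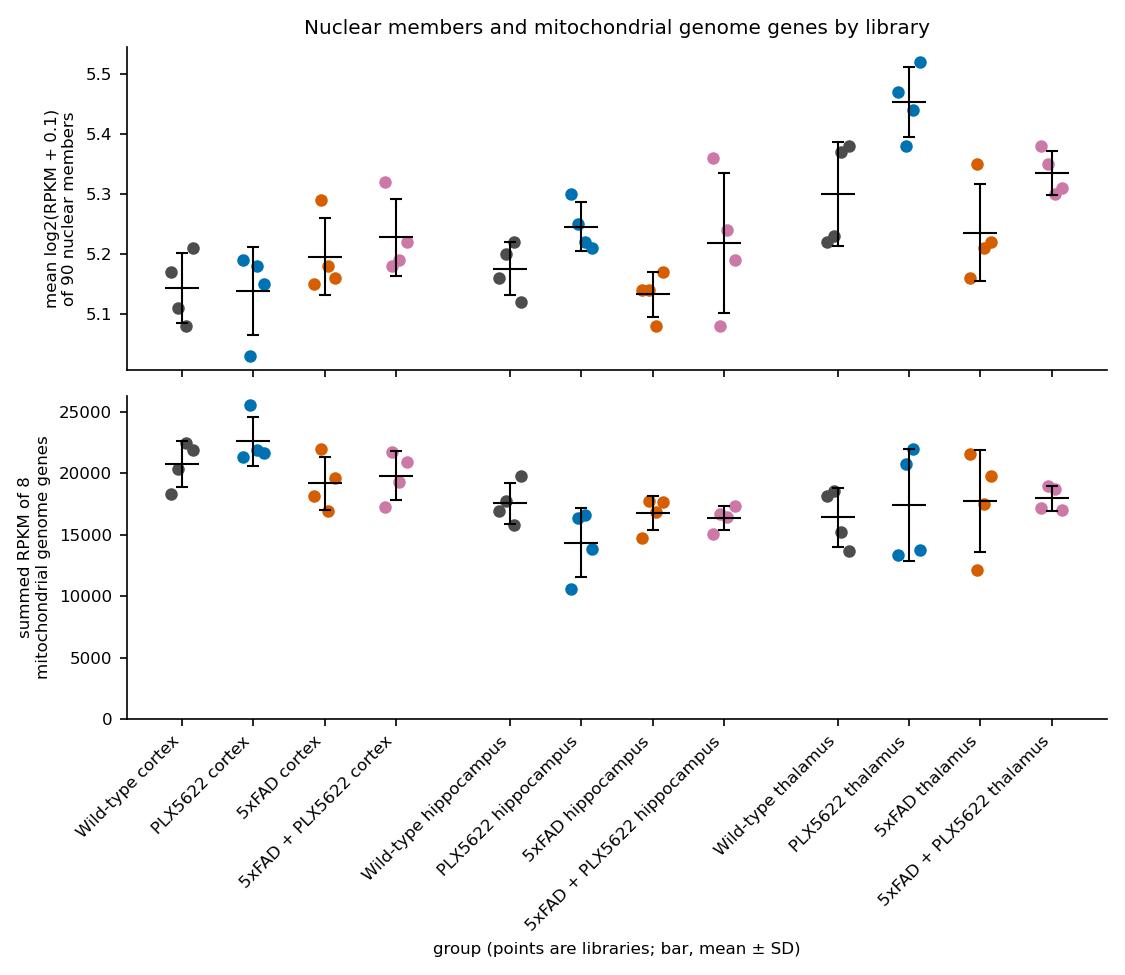
Mean log2(RPKM + 0.1) of 90 nuclear members (top) and summed RPKM of 8 genes of the mitochondrial genome (bottom) in each library; points are libraries and bars give mean ± SD (n = 4). The 4 PLX5622 thalamus libraries lie at 5.38 to 5.52 in the top panel, and the highest sums in the bottom panel are in cortex.

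The first comparison asks what the 5xFAD genotype does to these genes with microglia in place, and it found no member called. Differences between groups were tested with limma on log2(RPKM + 0.1) over all 15975 genes, a gene being called at a Benjamini-Hochberg adjusted p under 0.05. In cortex 0 of 91 members were called against 0.732% of all genes tested, in hippocampus 0 against 1.96% and in thalamus 0 against 0.413%. At an unadjusted p under 0.05 there were 1, 1 and 3 members, and limma with voom weights on recovered reads called 0 in each region. Median differences were 0.05 in cortex (66 of 91 above 0), -0.03 in hippocampus (35 above 0) and -0.07 in thalamus (15 above 0).

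Common subunits in hippocampus illustrate the size of these differences. Ndufv1, the NADH-binding subunit of complex I, read 68.4, 70.6, 68.1 and 66.8 RPKM in Wild-type hippocampus and 65.1, 66.1, 62.4 and 64.3 in 5xFAD hippocampus. All 4 of the 5xFAD values were below all 4 of the Wild-type values, by small steps, and the difference of -0.09 (SE 0.07, 95% interval -0.23 to 0.06) was not called (limma adjusted p = 0.647). Atp5b read 390, 406, 405 and 404 RPKM in Wild-type hippocampus and 391, 391, 354 and 416 in 5xFAD hippocampus, with overlapping groups and a difference of -0.05 (SE 0.07, 95% interval -0.19 to 0.09).

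The 95% interval of the 5xFAD difference lay wholly inside ±0.5 on the log2 scale for 77 of 91 members in cortex, 77 in hippocampus and 76 in thalamus. Half-widths of these intervals had a median of 0.17 in each region. The smallest adjusted p belonged to Ndufa1 in cortex (0.20, SE 0.09, adjusted p = 0.245), Cox7a2l in hippocampus (0.17, SE 0.07, adjusted p = 0.148) and Ndufab1 in thalamus (-0.62, SE 0.26, adjusted p = 0.188), the last a gene with almost no unique windows. In the same limma fit 6, 7 and 6 of 8 genes of plaque-associated microglia, such as Itgax and Cst7, rose in 5xFAD cortex, hippocampus and thalamus, and the astrocyte gene Gfap rose in each.

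A test of whether the 5xFAD difference itself varied by region called 0 members for hippocampus against cortex (0% of all genes; 5 members at an unadjusted p under 0.05) and 0 for hippocampus against thalamus (0% of all genes; 3 members). Voom on recovered reads called 0 in both.

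The next comparison asks what PLX5622 does in mice without plaques, and it gave member calls in thalamus. Against Wild-type thalamus, 3 of 91 members (3.3%) were higher in PLX5622 thalamus and 0 lower, with 0.545% of all genes higher and 3.3% lower; 35 members had an unadjusted p under 0.05, and voom on recovered reads also called 3 higher and 0 lower. The median difference over members was 0.16, with 83 of 91 above 0. The 3 were Ndufb5 and Ndufb8, accessory subunits in the membrane arm of complex I, and Sdha, the succinate-oxidising subunit of complex II.

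Ndufb5 (chr3:32737057-32751559, mm10) read 53.0, 56.1, 65.0 and 66.3 RPKM in Wild-type thalamus and 69.4, 72.7, 72.1 and 84.8 in PLX5622 thalamus. Every treated library was above every untreated one. The difference was 0.32 (SE 0.08, limma adjusted p = 0.0127) on the log2(RPKM + 0.1) scale. In 5xFAD thalamus Ndufb5 read 58.7, 67.1, 63.6 and 57.2 RPKM and in 5xFAD + PLX5622 thalamus 65.1, 63.6, 68.2 and 62.8. These groups overlapped each other, and both lay below all PLX5622 thalamus libraries.

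Ndufb8 (chr19:44548571-44555442) read 126, 121, 150 and 159 RPKM in Wild-type thalamus and 163, 154, 164 and 196 in PLX5622 thalamus. The groups overlapped at 1 point, Wild-type library 4 lying above PLX5622 library 2. Its difference was 0.28 (SE 0.08, limma adjusted p = 0.0195).

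Sdha (chr13:74322255-74350240) read 115, 118, 128 and 137 RPKM in Wild-type thalamus and 131, 143, 142 and 150 in PLX5622 thalamus. Again 1 Wild-type library, number 4, lay above the lowest treated library. The difference was 0.19 (SE 0.06, limma adjusted p = 0.0352).

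The other common subunits were not called, with values between 0.09 for Ndufv1 (SE 0.07) and 0.27 for Cox5a, a nuclear subunit of complex IV (SE 0.09, adjusted p = 0.065). Atp5b read 408, 407, 477 and 488 RPKM in Wild-type and 497, 474, 479 and 549 in PLX5622 thalamus, a difference of 0.17 (SE 0.07, limma adjusted p = 0.156) with 2 treated libraries below the highest Wild-type one. The medians by role were alike at 0.16 for core and accessory complex I subunits, 0.15 for complex II and 0.17 for complex III, complex IV and ATP synthase. They were 0.02 for the complex I assembly factors.

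The 3 calls depended on single libraries and on other settings. Without 1 library the count was 0 (Wild-type thalamus 1 or PLX5622 thalamus 4), 1 (Wild-type thalamus 2), 5 (Wild-type thalamus 3 or PLX5622 thalamus 1) or 9 (Wild-type thalamus 4). Summed RPKM of 9 striatal neuron markers was 695, 130, 216 and 250 in Wild-type thalamus and 134, 106, 87.7 and 100 in PLX5622 thalamus, a median difference of -1.40 with 0 of 9 called (5 at an unadjusted p under 0.05, voom 0). Drd1 read 28.7, 4.3, 6.61 and 7.29 against 2.45, 2.56, 1.55 and 1.42, so that none was at 0. The count was 1 with libraries shifted to one median or in a fit of thalamus alone, 5 with the mean of cytosolic ribosomal protein genes as a covariate (the ribosomal protein covariate) and 6 with Xist as a covariate. With dentate and striatal marker levels as covariates 0 members were called, Ndufb5 at 0.21 (adjusted p = 0.178), Ndufb8 at 0.21 (0.161) and Sdha at 0.12 (0.247). Here and below, the dentate covariate varied in hippocampus libraries alone and the striatal one in thalamus libraries alone, each centred within its region. Striatal signal in cortex or hippocampus libraries was thus not adjusted. Adjusted p over all settings ran from 0.00746 to 0.178, 0.00491 to 0.161 and 0.00993 to 0.247 for these 3 genes.

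Other markers differed between these groups as well. Of 6 excitatory neuron genes 4 were lower in PLX5622 thalamus, among them Camk2a, Slc17a7 and Tbr1, with a list median of -1.48. Summed RPKM of 8 oligodendrocyte genes was 1056, 1542, 1831 and 1254 in Wild-type and 1952, 2087, 1855 and 1757 in PLX5622 thalamus (0 of 8 called, 3 unadjusted, voom 0, median 0.42), and 0 of 7 thalamic relay genes were called (0 unadjusted, voom 0, median 0.28). All 12 microglia genes fell, with summed values of 175 to 222 RPKM in Wild-type and 11.8 to 35.3 in PLX5622 thalamus. The part of these cell types in the higher levels of the members was not tested beyond the dentate and striatal term.

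Related mitochondrial lists moved less than the members in the same comparison. The 8 genes of the mitochondrial genome had a median of 0.02 with 0 called by limma (0 unadjusted, voom 0), and 19 genes of the citric acid cycle a median of 0.10 with 0 called (5 unadjusted, voom 0). Single genes rose elsewhere: Etfa, an electron carrier of fatty acid oxidation, of 17 in its list, Atpaf1, an ATP synthase assembly factor, of 36, Slc25a4, the ADP/ATP carrier, of 14, Aldoc of 18 glycolysis genes, Mrps34 of 77 mitochondrial ribosome genes and Rps15a of 78 cytosolic ribosomal protein genes. Medians of these lists were 0.08, 0.06, 0.07, 0.08, 0.05 and 0.05.

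**Figure D4:**
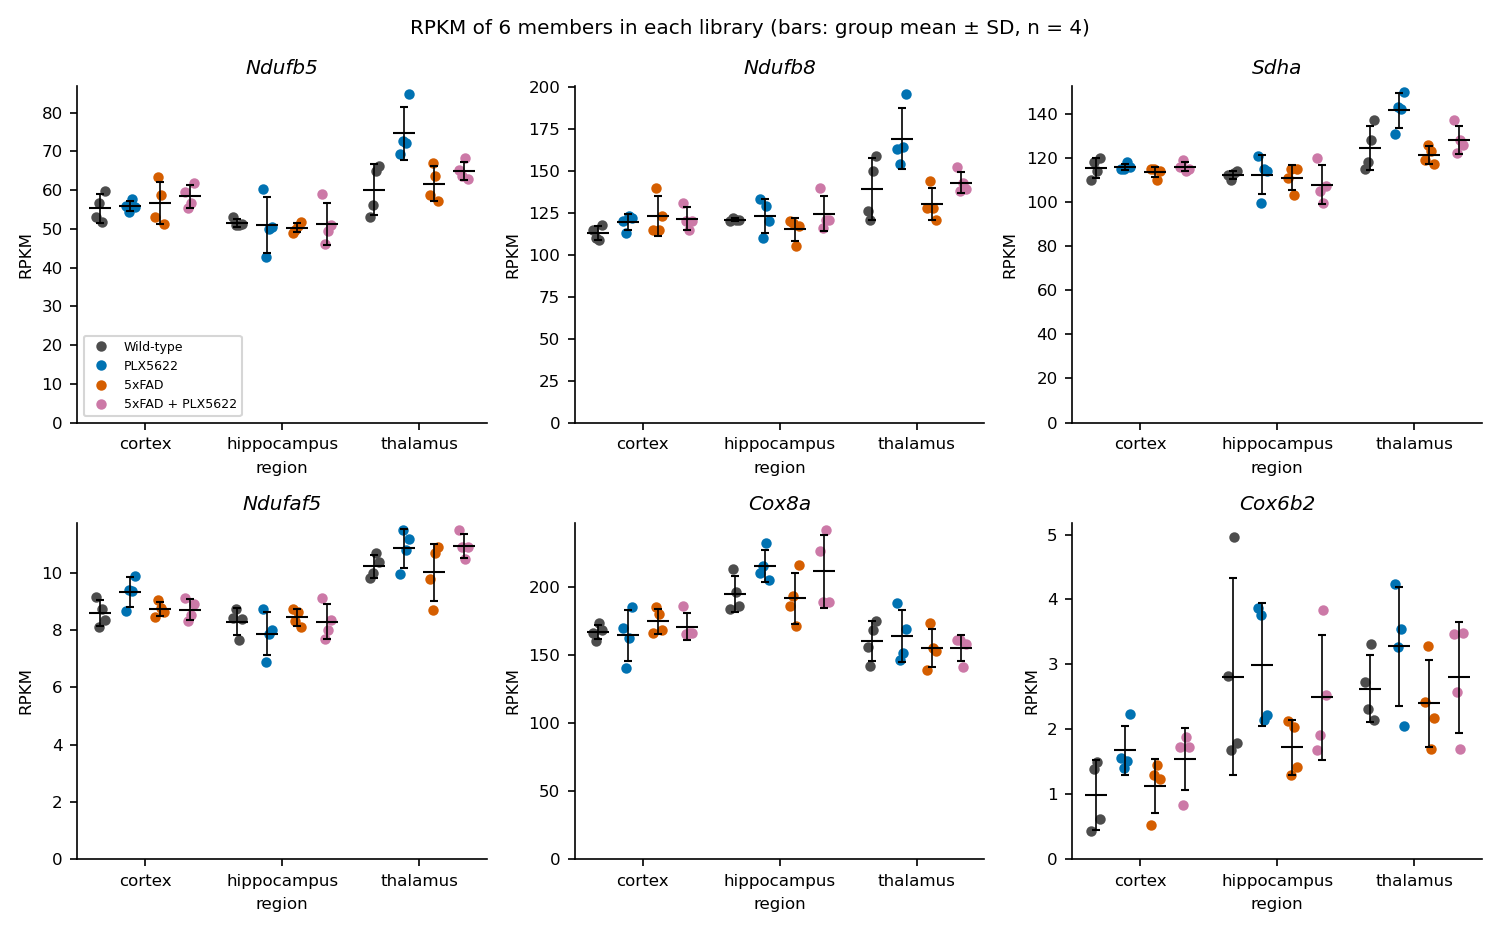
RPKM of Ndufb5, Ndufb8, Sdha, Ndufaf5, Cox8a and Cox6b2 in each library by region and group; points are libraries, bars give group mean ± SD (n = 4), and axes start at 0. Ndufb5 in PLX5622 thalamus lies at 69.4 to 84.8 RPKM, above Wild-type thalamus at 53.0 to 66.3, and Cox8a is highest in hippocampus.

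In cortex and hippocampus PLX5622 did not lead to a call. Against Wild-type cortex 0 of 91 members were called (1.38% of all genes; 4 members at an unadjusted p under 0.05; voom 0; median 0.00), and the smallest adjusted p was that of the assembly factor Ndufaf8 (-0.52, SE 0.18, adjusted p = 0.087). Without PLX5622 cortex 4 the count was 1. Against Wild-type hippocampus 0 were called (2.77% of all genes; 5 members unadjusted; voom 0), with a median of 0.07, 73 of 91 above 0 and the smallest adjusted p for Uqcr10 of complex III (0.23, SE 0.09, adjusted p = 0.172).

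A direct test of the drug effect in thalamus minus that in cortex called 0 members (0% of all genes), with 17 members at an unadjusted p under 0.05 and a median of 0.16. Against hippocampus it called 0 members (0.257% of all genes), with 6 unadjusted and a median of 0.09. Voom called 0 in both. For Ndufb5 these differences were 0.30 (SE 0.11, limma adjusted p = 0.615) and 0.35 (SE 0.11, limma adjusted p = 0.217), so a drug effect particular to thalamus was not established for any member. Both contrasts were chosen after the other results had been seen.

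In 5xFAD mice PLX5622 also left the members without a call. Against 5xFAD of the same region, 0 were called in cortex (2.13% of all genes; 3 members at an unadjusted p under 0.05; median 0.02), 0 in hippocampus (2.96%; 15 members; 0.08) and 0 in thalamus (2.76%; 3 members; 0.08), and voom called 0 in each. The intervals of 78, 76 and 77 members lay inside ±0.5. The smallest adjusted p were 0.111 for Ndufa4l2 in cortex (0.77, SE 0.28), 0.0716 for Ndufa2 in hippocampus (0.34, SE 0.11) and 0.0756 for Sdhc, a membrane anchor of complex II, in thalamus (0.23, SE 0.08).

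Single libraries mattered here too. The count became 1 in cortex without 5xFAD cortex 4, in hippocampus without 5xFAD hippocampus 1, 5xFAD hippocampus 3 or 5xFAD + PLX5622 hippocampus 2, and in thalamus without 5xFAD thalamus 2. In hippocampus it was also 1 without the 2 libraries that held liver transcripts, with a ribosomal protein covariate or in a fit of hippocampus alone. With dentate and striatal covariates it was 2 in hippocampus and 1 in thalamus.

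With PLX5622 on board, the genotype comparison 5xFAD + PLX5622 against PLX5622 called 0 members in cortex (0.0626% of all genes; 9 members at an unadjusted p under 0.05; median 0.06), 0 in hippocampus (0.808%; 2 members; -0.02) and 0 in thalamus (0.0376%; 30 members; -0.14). Voom called 0 in each. In thalamus 81 of 91 members lay below 0, for example Ndufb8, which read 163, 154, 164 and 196 RPKM in PLX5622 and 152, 138, 143 and 139 in 5xFAD + PLX5622 thalamus. The groups of Ndufb8 did not overlap, and its difference was -0.23 (SE 0.08, limma adjusted p = 0.247). This comparison shares its PLX5622 libraries with the drug comparison in Wild-type mice. Summed striatal markers were 234 to 644 RPKM in 5xFAD + PLX5622 thalamus (median difference 1.96; 0 of 9 called, 8 unadjusted, voom 0). With dentate and striatal covariates the member count was also 0.

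The drug effect in 5xFAD minus that in Wild-type called 0 members in cortex (0% of all genes), 0 in hippocampus (0.332%) and 0 in thalamus (0.00626%), with 2 members each at an unadjusted p under 0.05 and 0 by voom. Medians were 0.01, 0.02 and -0.07. Shifting all libraries to one median moved the hippocampus value over all genes from 0.01 to -0.10 and that over members from 0.02 to -0.09, so no direction is given for it.

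Regions were compared next. Within each arm, the term used here for one combination of genotype and diet, each pair of regions was compared. All 4 arms placed 51 of 91 members lower in cortex than in thalamus and 62 lower in hippocampus than in thalamus, as signs of the estimates, and 5 and 4 members the other way. Between cortex and hippocampus 22 members were above 0 and 11 below in all 4 arms. Agreement of signs over the 4 arms was not counted for all genes tested, so these counts have no background beside them. Medians over all genes lay between -0.03 and 0.02 in each of these comparisons.

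In Wild-type mice 0 members were higher and 9 (9.89%) lower in cortex than in thalamus, with 9.28% and 8.97% of all genes, so the share lower was near the background. The median was -0.13, 29 members had an unadjusted p under 0.05, and voom called 0 and 9. The 9 included Cox6b2, Ndufa13, Ndufb8, Ndufa2, Ndufaf5, Sdhc, Sdhd and Ndufs7. Between hippocampus and thalamus 1 was higher and 8 (8.79%) lower, with 5.55% and 5.75% of all genes (median -0.14), the lower ones including Ndufaf5, Ndufv2, Ndufa3, Ndufc1, Cox6b1, Atp5c1, Uqcrh and Atp5o. Without Wild-type thalamus 3 or 4 these counts were 2 for cortex and 2 for hippocampus, without Wild-type cortex 2 or 4 the first was 5, and without Wild-type hippocampus 2, 3 or 4 the second was 5, 3 or 3. With a ribosomal protein covariate the counts were 0 for cortex and 3 for hippocampus. The hippocampus count was 15 with dentate and striatal covariates, 5 without a variance trend and 4 in a fit of these regions alone. With libraries shifted to one median 0 members were higher and 9 lower in hippocampus, as were 684 and 1083 of all genes in place of 886 and 918.

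In PLX5622 mice the same contrasts gave many more calls. In cortex 62 of 91 members (68.1%) were lower than in thalamus and 1 higher, against 25% and 25.8% of all genes, and the median was -0.29. In hippocampus 43 (47.3%) were lower than in thalamus and 1 higher, against 13.7% and 14.2% of all genes, and the median was -0.21; with dentate and striatal covariates the total of 44 was 26. These comparisons were adjusted by themselves and the Wild-type ones jointly with 14 others; adjusted alone, Wild-type mice gave 16 calls for cortex and 15 for hippocampus. The direct tests of the difference between the arms are the drug effects in thalamus minus cortex and minus hippocampus given above, which called 0 members.

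Calls came from every complex. Lower in PLX5622 cortex than thalamus were 5 of 7 core subunits of complex I, 22 of 29 accessory subunits, 3 of 4 of complex II, 6 of 8 of complex III, 10 of 16 of complex IV and 12 of 15 of ATP synthase. Of the 8 assembly factors of complex I, 2 were lower and 1 higher. Lower in PLX5622 hippocampus than thalamus were 4 of 7, 14 of 29, 3 of 4, 2 of 8, 7 of 16 and 9 of 15 in the same order, with 2 of 8 assembly factors.

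The smallest p in PLX5622 cortex against thalamus was that of Ndufa6, an accessory subunit of complex I, which read 58.8, 58.8, 57.6 and 59.4 RPKM in cortex and 81.8, 73.7, 82.8 and 86.5 in thalamus. The regions were far apart relative to their spread. The difference was -0.47 (SE 0.07, limma adjusted p = 1.39e-06). Ndufb8 read 120, 113, 123 and 122 RPKM in PLX5622 cortex, below all 4 thalamus libraries listed above (-0.50, SE 0.08, limma adjusted p = 1.93e-06).

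Sdhc read 45.5, 41.3, 51.4 and 46.4 RPKM in PLX5622 cortex and 64.8, 58.8, 61.6 and 69.1 in thalamus, without overlap (-0.46, SE 0.08, limma adjusted p = 6.14e-06). Atp5b read 400, 373, 382 and 389 RPKM in cortex against 474 to 549 in thalamus (-0.37, SE 0.07, limma adjusted p = 2.59e-05), also without overlap. By contrast Uqcrc2 differed by 0.00 (SE 0.05, 95% interval -0.10 to 0.11) and Ndufs1, the largest core subunit of complex I, by -0.05 (SE 0.05, 95% interval -0.14 to 0.05). Other large differences were Ndufa2 at -0.66, Cox5b of complex IV at -0.53, Uqcrh and Ndufa13 at -0.51 and Uqcrc1, the partner of Uqcrc2 in the core of complex III, at -0.47, all called.

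Ndufb5 had the smallest p between PLX5622 hippocampus and thalamus. It read 60.4, 42.7, 50.1 and 50.5 RPKM in hippocampus and 69.4 to 84.8 in thalamus, without overlap. The difference was -0.56 (SE 0.08, limma adjusted p = 8.15e-07), against -0.21 (adjusted p = 0.13) in Wild-type, -0.29 (0.0256) in 5xFAD and -0.34 (0.00119) in 5xFAD + PLX5622 mice.

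The other arms gave fewer calls. In 5xFAD mice 0 members were higher and 0 lower in cortex than thalamus (6.1% and 5.91% of all genes; 5 members at an unadjusted p under 0.05; voom 0; median -0.03), and 1 was higher and 4 lower in hippocampus than thalamus (3.04% and 2.45%; median -0.10). The first count was 1 without 5xFAD cortex 4, 5xFAD thalamus 2 or 5xFAD thalamus 3. The second, 5 in all, was 1 without 5xFAD hippocampus 2 or 5xFAD thalamus 3, 2 without 5xFAD thalamus 4, 3 without 5xFAD hippocampus 4 or 5xFAD thalamus 2, and 1 without the hippocampus libraries with Drd1 of 10 RPKM or more. It was 0 with libraries shifted to one median and 2 in a fit of these regions alone.

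In 5xFAD + PLX5622 mice 1 member was higher and 12 (13.2%) lower in cortex than thalamus, against 14.4% and 16.2% of all genes (median -0.08). In hippocampus 2 were higher and 16 (17.6%) lower than in thalamus, against 13.8% and 12.7% (median -0.10). The first total, 13, was 6 without 5xFAD + PLX5622 cortex 4 and 5 without 5xFAD + PLX5622 thalamus 1. It was 4 with the ribosomal protein covariate, 8 with libraries shifted to one median and 22 with dentate and striatal covariates. The second, 18, was 11 without 5xFAD + PLX5622 hippocampus 2 and 9 without the 2 libraries that held liver transcripts.

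**Figure D5:**
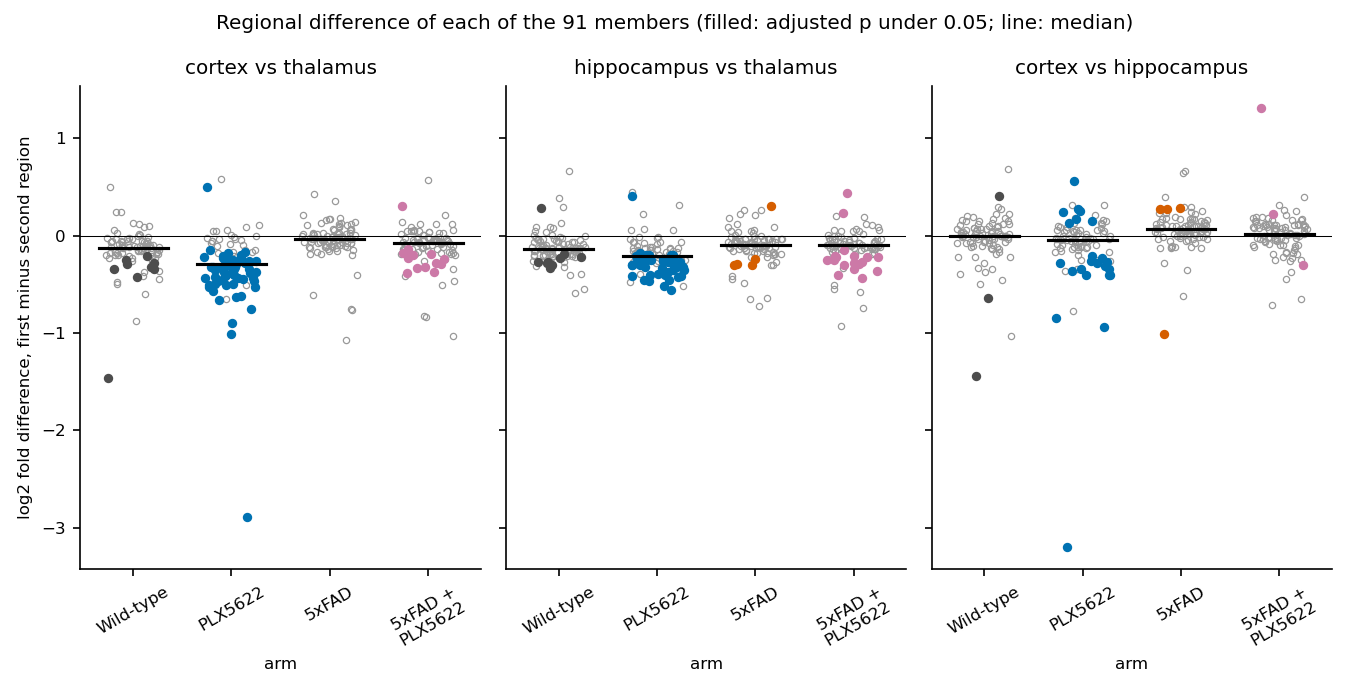
Regional log2 difference of each of the 91 members in the 4 arms for 3 pairs of regions; filled points have an adjusted p under 0.05 and lines give medians. In the PLX5622 arm most points lie below 0 against thalamus, with medians of -0.29 for cortex and -0.21 for hippocampus, and the point farthest down in cortex vs hippocampus is Cox8b at -3.20.

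Ndufaf5, a complex I assembly factor that modifies the core subunit Ndufs7, was the 1 member called lower in hippocampus than in thalamus in all 4 arms. It lies at chr2:140170584-140218965. In Wild-type mice it read 8.43, 8.76, 7.65 and 8.38 RPKM in hippocampus and 9.82, 10, 10.7 and 10.4 in thalamus, and in PLX5622 mice 8.75, 6.9, 7.86 and 8.0 against 9.95, 11.5, 10.8 and 11.2. In 5xFAD mice it read 8.76, 8.31, 8.63 and 8.11 against 9.79, 8.72, 10.7 and 10.9, and in 5xFAD + PLX5622 mice 9.12, 7.7, 8.0 and 8.35 against 11.5, 10.9, 10.5 and 10.9. The regions overlapped in 5xFAD mice alone, where thalamus library 2 lay below hippocampus library 1. How many of all genes tested were called lower in all 4 arms was not counted. By arm, in the same order, 5.75%, 13.7%, 2.45% and 12.7% of all genes were lower in hippocampus.

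The differences of Ndufaf5 were -0.30 (limma adjusted p = 0.00464), -0.46 (1.27e-06), -0.24 (0.0284) and -0.40 (1.83e-05) in that order of arms, each with an SE of 0.07. The call in 5xFAD mice was lost without 5xFAD hippocampus 2 or 4 or 5xFAD thalamus 3 or 4 and without the libraries with high Drd1. It was also lost with libraries shifted to one median and in a fit of these regions alone, and its adjusted p reached 0.117. In cortex against thalamus it was called lower in 3 arms (-0.25, -0.22 and -0.33) and not in 5xFAD mice (-0.19, adjusted p = 0.0984).

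Cox8a, the general form of complex IV subunit 8 (chr19:7215158-7217616), went the opposite way and was the 1 member called higher in hippocampus than in thalamus in all 4 arms. In Wild-type mice it read 184, 213, 196 and 186 RPKM in hippocampus and 156, 142, 168 and 175 in thalamus, and in PLX5622 mice 210, 215, 232 and 205 against 188, 146, 151 and 169. In 5xFAD mice it read 186, 193, 171 and 216 against 139, 173, 155 and 153, and in 5xFAD + PLX5622 mice 226, 189, 242 and 189 against 161, 161, 141 and 158. Only in 5xFAD mice did the regions overlap, at hippocampus library 3. Genes called higher in all 4 arms were not counted over all genes tested. By arm, in the same order, 5.55%, 14.2%, 3.04% and 13.8% of all genes were higher in hippocampus.

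The differences of Cox8a were 0.28 (limma adjusted p = 0.048), 0.41 (3.82e-04), 0.30 (0.0317) and 0.44 (1.48e-04), each with an SE of 0.09. The Wild-type call was lost without Wild-type hippocampus 2, 3 or 4 or Wild-type thalamus 1, 2 or 3, and the 5xFAD call without 5xFAD hippocampus 2 or 4 or 5xFAD thalamus 1, 3 or 4. Of 15 other settings, 9 kept the Wild-type call and 12 the 5xFAD call. Both were lost with libraries shifted to one median, without the libraries with high Drd1 and in a fit of these regions alone, and the Wild-type call also without a variance trend, with Xist and with dentate and striatal covariates. Their adjusted p reached 0.245 and 0.131. Cox8a was also lower in cortex than in hippocampus in PLX5622 (-0.40, adjusted p = 8.40e-04) and 5xFAD + PLX5622 mice (-0.30, adjusted p = 0.0278).

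Cox6b2, the restricted form of complex IV subunit 6b (chr7:4751792-4753094), had the largest cortical deficit of the Wild-type calls, at a low level. It read 0.436, 1.39, 1.5 and 0.623 RPKM in Wild-type cortex, 2.82, 1.68, 4.96 and 1.79 in hippocampus and 2.73, 2.32, 3.31 and 2.15 in thalamus. Cortex lay below both other regions without overlap. The differences were -1.44 (SE 0.34, limma adjusted p = 0.00737) against hippocampus and -1.46 (SE 0.34, limma adjusted p = 0.0064) against thalamus, on a log2(RPKM + 0.1) scale that understates changes of low genes. Against thalamus it was also called in PLX5622 mice (-0.90, adjusted p = 0.0276) and not in 5xFAD (-1.07, 0.0618) or 5xFAD + PLX5622 mice (-0.83, 0.0647). Without 1 library the adjusted p against hippocampus reached 0.055 in Wild-type mice.

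Between cortex and hippocampus few members were called outside the PLX5622 arm. In Wild-type mice 1 was higher and 2 lower in cortex (1.46% and 2.85% of all genes; median -0.00): Ndufb4 at 0.41 (adjusted p = 0.0153), and Cox6b2 with Atp5g1 at -0.64 (adjusted p = 0.0385). Ndufb4 and Atp5g1 are among the genes with under 1% of windows unique. In 5xFAD mice 3 were higher and 1 lower (2.27% and 3.09%; median 0.07), namely Cox7a2 (0.28), Ndufb6 (0.27) and Ndufc2 (0.27), and Ndufa4l2 (-1.01, adjusted p = 0.0237). In 5xFAD + PLX5622 mice 2 were higher and 1 lower (2.36% and 5.42%; median 0.02): Cox7c at 1.31, which had 1 to 16 reads per library, Ndufv2 at 0.22, and Cox8a.

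Single libraries moved each of these 3 counts. The Wild-type count of 3 was 1 without cortex 2, cortex 3 or hippocampus 3. The 5xFAD count of 4 was 1 without cortex 1 or 3, 0 without cortex 2, and 2 without hippocampus 2, without hippocampus 3 or without the libraries with high Drd1; it was 1 with libraries shifted to one median. The 5xFAD + PLX5622 count of 3 was 1 without cortex 2, cortex 3 or hippocampus 2, 0 without cortex 4 or hippocampus 3, and 10 without hippocampus 1; it was 0 without the liver-positive pair and 1 without the libraries with high Drd1, with libraries shifted to one median or with a ribosomal protein covariate.

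In PLX5622 mice 7 members (7.69%) were higher and 16 (17.6%) lower in cortex than in hippocampus, against 17.9% of all genes in each direction, so neither share exceeded the background. Without PLX5622 cortex 2 the count of 23 was 9. Ndufaf8, a complex I assembly factor, read 6.65, 4.6, 5.82 and 8.22 RPKM in cortex and 12, 9.65, 10.1 and 13.6 in hippocampus, without overlap (-0.85, limma adjusted p = 6.06e-04). Among the members higher in cortex were the assembly factors Ndufaf4 (0.56), Ndufaf5 (0.25) and Ndufaf7 (0.24).

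Genes of the mitochondrial genome, which supply the other subunits of the same complexes, did not follow the nuclear members by region. Of the 8 in the table, 5 were higher in PLX5622 cortex than in thalamus (median 0.51), where 62 nuclear members were lower. Among the 5 were the complex I subunits ND3 (1.43), ND5 (0.95) and ND4 (0.61). ND5 read 769 and 575 RPKM in PLX5622 thalamus libraries 1 and 4, against 2142 and 2135 in libraries 2 and 3. It read 2120, 2618, 2284 and 2202 in PLX5622 cortex, so its difference rested mostly on thalamus libraries 1 and 4. ND3 was low, at 4.88 to 5.19 RPKM in PLX5622 cortex and 0.71 to 3.91 in PLX5622 thalamus. Against hippocampus 5 of 8 were also higher in PLX5622 cortex (median 0.83). Their summed RPKM was 21292 to 25550 in PLX5622 cortex, 13302 to 21953 in PLX5622 thalamus and 10559 to 16600 in PLX5622 hippocampus. In Wild-type cortex against thalamus the median was 0.41 with 0 of 8 called (5 unadjusted, voom 0). Reads of these transcripts depend on how a library was made, and the sources name 2 different kits.

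Other lists also held calls between PLX5622 cortex and thalamus, where 25% of all genes were lower in cortex. Lower in cortex were 10 of 19 citric acid cycle genes (1 higher, median -0.20), 24 of 77 mitochondrial ribosome genes (6 higher, -0.17), 10 of 20 mitochondrial import genes (4 higher), 6 of 17 electron carrier genes including Cyc1 (1 higher), 6 of 14 partner genes and 26 of 78 cytosolic ribosomal protein genes (2 higher, -0.21). Glycolysis split with 3 of 18 higher and 6 lower, as did 14 regulators of mitochondrial biogenesis with 3 and 3. With the mean of cytosolic ribosomal protein genes as a covariate the members called fell from 63 to 20 in this comparison, from 23 to 2 in PLX5622 cortex against hippocampus and from 9 to 0 in Wild-type cortex against thalamus.

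Cell type markers differed between the regions in the same comparison. Of 8 oligodendrocyte genes 7 were lower in PLX5622 cortex than thalamus (median -1.40), with sums of 794 to 965 RPKM against 1757 to 2087, and all 7 thalamic relay genes were lower (median -2.76). Although the thalamus samples are described as holding striatum, 8 of 9 striatal markers were higher in PLX5622 cortex (median 2.26). In PLX5622 hippocampus against thalamus 0 of 8 oligodendrocyte genes were called (3 unadjusted, voom 0, median -0.44; sums of 949 to 1702 RPKM in hippocampus) and 6 of 7 thalamic relay genes were lower, while 43 members were lower. With dentate and striatal covariates the member counts were 51 (from 63) for PLX5622 cortex against thalamus and 26 (from 44) for PLX5622 hippocampus against thalamus. Oligodendrocyte and relay neuron levels, and striatal levels in cortex and hippocampus, were not fitted, and their part was not tested.

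Cox8b, the muscle form of complex IV subunit 8, varied by library rather than by group. Its 4 highest values were 11.9 RPKM in PLX5622 hippocampus 2, 9.15 in PLX5622 thalamus 1, 7.53 in Wild-type hippocampus 3 and 6.08 in 5xFAD + PLX5622 hippocampus 3. These were also the 4 libraries with the most Ttr, a transcript abundant in choroid plexus, at 3749, 2196, 4126 and 1376 RPKM. In the other 44 libraries Cox8b did not exceed 3.5 RPKM (median 0.876) and Ttr did not exceed 743 (median 182), and Cox8b was listed at 0 in 3 libraries. In the PLX5622 arm Cox8b read 0, 0, 0.72 and 0.414 RPKM in cortex and 2.82, 11.9, 2.28 and 0.264 in hippocampus, and was called lower in cortex (-3.20, SE 0.92, limma adjusted p = 0.00724). Whether choroid plexus tissue in these samples accounts for the values was not tested.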

How the data were processed

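Members and lists were chosen with earlier results of these data known. Per the methods and labels, the authors aligned single 50-base reads to mm10 with STAR, counted them per gene with featureCounts, dropped low-count genes, computed edgeR scaling factors and deposited RPKM values for 16014 genes. Tool versions and whether the factors entered the RPKM are not given in the sources used here. The labels name an Illumina TruSeq kit and the methods a KAPA kit with ribosomal RNA depletion.

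Here RPKM values were used as log2(RPKM + 0.1). Genes at 0.2 RPKM or more in at least 4 libraries were tested, 15975 with all 91 members. A fold change on this scale understates the change of low genes. A single limma 3.58.1 fit (R 4.3.3, 1 mean per group, eBayes with trend) took in the 48 libraries and was checked on simulated data. The 15 comparisons of the study were adjusted together (Benjamini-Hochberg, 0.05) and the 16 others each alone. Low values stepped in whole reads: 99.99% of genes came out whole within 0.05 reads in every library, which gave totals of 6.19 to 16.01 (in 1e6 reads) and an alternative voom fit. Further alternatives changed the pseudocount, filter, scaling, variance model, adjustment, libraries, covariates and replicate block, and left out each library. Named members were up to 8 called in each direction per comparison, a set of common subunits, isoforms, and the 3 highest, lowest, most and least variable. Of the other lists, up to 3 called genes were named. Other steps used Python 3.11.15 with pandas 2.3.3, numpy 2.4.6 and matplotlib 3.10.9. No column held values of other samples. Some items are not reported here.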

Additional observations from a re-analysis of the deposited data

Results flagged for a closer look

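In 120 groups of 4 libraries (9 members and the mean of the members, each in 12 groups) a library stood apart from its group by Dixon's criterion 7 times, and chance gives about 1 in 20. Ndufb5 was high in Wild-type hippocampus 1 at 53.0 RPKM, and Atp5b was low in the same library at 390 RPKM. Cox8a was high in 5xFAD + PLX5622 cortex 1 at 186 RPKM and low in 5xFAD + PLX5622 thalamus 3 at 141 RPKM. Cox6b2 was low in 5xFAD + PLX5622 cortex 2 at 0.836 RPKM. Cox8b was high in Wild-type hippocampus 3 at 7.53 RPKM, a library with Ttr at 4126 RPKM, and in Wild-type thalamus 2 at 2.14 RPKM.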

How the results depend on the processing

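Of 465 member counts under 15 alternatives in 31 comparisons, 35 moved by more than 1.5 times, and of 1305 values of named members under these alternatives 1184 kept their call and none reversed. With a ribosomal protein covariate the counts were 20 for PLX5622 cortex against thalamus (63), 2 for PLX5622 cortex against hippocampus (23), 0 and 3 for Wild-type cortex and hippocampus against thalamus (9 each), 1 and 4 for 5xFAD + PLX5622 cortex against hippocampus (3) and thalamus (13), 5 for PLX5622 against Wild-type thalamus (3) and 1 for 5xFAD + PLX5622 against 5xFAD hippocampus (0). With dentate and striatal covariates they were 0 for PLX5622 against Wild-type thalamus, 26 for PLX5622 hippocampus against thalamus (44), 15 for Wild-type hippocampus against thalamus, 22 for 5xFAD + PLX5622 cortex against thalamus, 1 for 5xFAD cortex against thalamus (0), and 2 and 1 for 5xFAD + PLX5622 against 5xFAD hippocampus and thalamus (0 each). With libraries shifted to one median they were 1 for PLX5622 against Wild-type thalamus, 1 and 0 for 5xFAD cortex against hippocampus (4) and hippocampus against thalamus (5), and 1 and 8 for 5xFAD + PLX5622 cortex against hippocampus and thalamus. Adjusted by itself, Wild-type cortex against thalamus gave 16, Wild-type hippocampus against thalamus 15 and 5xFAD cortex against thalamus 2. In fits of the compared regions alone the counts were 1 for PLX5622 against Wild-type thalamus, 4 for Wild-type and 2 for 5xFAD hippocampus against thalamus, and 1 for 5xFAD + PLX5622 against 5xFAD hippocampus. Without a variance trend Wild-type hippocampus against thalamus gave 5, and with Xist as a covariate PLX5622 against Wild-type thalamus gave 6. Without the 2 liver-positive libraries 5xFAD + PLX5622 hippocampus gave 9 against thalamus (18), 0 against cortex and 1 against 5xFAD. Without the libraries with Drd1 of 10 RPKM or more, an alternative chosen after seeing the data, 5xFAD hippocampus gave 2 against cortex and 1 against thalamus, and 5xFAD + PLX5622 cortex against hippocampus gave 1. The causes of these moves were not tested.

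Leaving out each library in turn gave 0 to 9 calls for PLX5622 against Wild-type thalamus and 0 to 1 for PLX5622 against Wild-type cortex and for 5xFAD + PLX5622 against 5xFAD cortex, hippocampus and thalamus. Cortex against hippocampus ran from 1 to 3 in Wild-type, 0 to 5 in 5xFAD, 9 to 22 in PLX5622 and 0 to 10 in 5xFAD + PLX5622 mice, cortex against thalamus from 2 to 13, 0 to 1, 53 to 66 and 5 to 16, and hippocampus against thalamus from 2 to 10, 1 to 5, 31 to 48 and 11 to 21. Of 696 such values of named members 514 kept their call. Deviations of same-numbered libraries correlated from -0.281 to 0.371 across regions (median 0.00671). Across arms they correlated from -0.515 to 0.666 (median 0.0185). Regions of the same mouse need not deviate together, so these values cannot decide whether same-numbered libraries shared a mouse. The main fit treated all libraries as independent. The fit with a replicate block gave 10 for Wild-type hippocampus against thalamus (9) and 45 for PLX5622 hippocampus against thalamus (44), and moved no count by more than 1.5 times. Depth limits Cox7c, Atp5l and Atp5g2, with at most 20 reads in any library.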
